A study of Mus musculus with 6 samples.

Results

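The genes described here are 39 genes of DNA replication and of the step from G1 into S phase, taken from a table of 15487 genes by their symbols. All 39 were present, all 39 passed the filter on low values that left 11198 genes for testing, and none was listed at 0 in any library. RNA was sequenced from macrophages that had been sorted by flow cytometry out of CT26 tumours on day 15. CT26 is an established colon carcinoma line from a BALB/c mouse, and the labels give the strain as BALB/C and the macrophages of every sample as wild type. One group of 3 libraries came from tumours labelled Sg-Con and the other group of 3 from tumours labelled Sg-C3, read here as tumour cells carrying a control guide RNA and a guide RNA against the complement gene C3. Both groups therefore differ in the tumour cells and not in a stated genotype of the macrophages. Whether the 3 libraries of a group stem from different animals is not stated in the labels, so the p-values reflect the spread among these 6 libraries, part or all of which may be technical. Values are FPKM, fragments per kilobase of transcript scaled to the mapped fragments of the library, a level per length that can be compared between genes. Comparison between libraries depends on how they are scaled, and the counts below changed with the scaling.

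Before a cell copies its DNA, the origin recognition complex, Cdc6 and Cdt1 load the MCM2-7 helicase onto origins, a step called licensing. In S phase Cdc45 and the GINS complex turn the loaded helicase into an active one, primase and the DNA polymerases copy both strands, and the sliding clamp PCNA holds the polymerases on the template. Cyclin E and the E2F transcription factors drive entry into S phase, and many replication genes are known E2F targets whose RNA is highest around the G1/S boundary. In tumours, macrophages are renewed both from blood monocytes and by division in the tissue, and these genes are commonly read as a sign of dividing cells.

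The libraries had similar estimated depths of 17.8 to 19.4 megareads, read from the spacing of FPKM values in short non-coding genes. Adgre1, which encodes the macrophage marker F4/80, was at 173.0 ± 11.6 FPKM in Sg-Con and 171.6 ± 29.8 in Sg-C3 (SD, n = 3). It does not stand for all macrophage markers: of 12 listed macrophage genes, 4 were lower in Sg-C3 and 8, Adgre1 among them, did not pass. Lyz2, Mertk, Cd68 and Itgam were at 43.8%, 32.45%, 55.6% and 58.2% of their Sg-Con means (limma adjusted p from 0.00194 to 0.00750). Of all tested genes, 31.7% were lower. The C3 gene itself was at 89.94, 78.24 and 59.66 FPKM in Sg-Con and 150.59, 199.14 and 169.61 in Sg-C3, which does not check the guide labels because the guides were in the tumour cells. Markers of other cells were also present, and some differed between the groups. Of 13 listed genes of natural killer and cytotoxic cells, 12 had all 3 Sg-C3 values above all 3 Sg-Con values, which 16.2% of all tested genes did, with summed levels of 113.5 to 132.2 FPKM in Sg-Con and 541.7 to 1012 in Sg-C3, mostly from Ccl5. Of 12 listed carcinoma genes, 5 had all Sg-C3 values below all Sg-Con values (Krt8, Krt20, Cdh1, Cldn3 and Lgals4). That share is close to the 41.4% of all tested genes, so the count does not set these genes apart. The summed levels of the 12 genes were 36.3 to 65.5 FPKM in Sg-Con and 4.72 to 9.46 in Sg-C3. The part of other cells in the results on replication genes was not tested, and in bulk RNA fewer dividing cells and less RNA per dividing cell cannot be told apart.

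Replication and G1/S genes were mostly lower in macrophages from Sg-C3 tumours. Of the 39 genes, 28 fell (71.8%), none rose and 11 did not pass, at a Benjamini-Hochberg adjusted p below 0.05 in limma over all tested genes. The background in the same comparison was 31.7% of all tested genes lower and 12.7% higher. The genes that fell ended at 45.0% to 71.9% of their Sg-Con mean. The median log2 fold change of the 39 genes, Sg-C3 minus Sg-Con on the log2(FPKM + 1) scale, was -0.65, against -0.16 over all tested genes, which leaves -0.49 relative to the whole table. Rrm2 and Mcm6 fell the most, and they were the members with a log2 fold change past -1 on this scale, which understates changes of low genes. By group means Pole, Mcm10 and Pold1 ended nearly as low, at 46.8%, 49.1% and 49.6% of Sg-Con, against 45.0% for Rrm2 and 46.4% for Mcm6.

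Library by library, the picture was of lower levels in all 3 Sg-C3 samples. The median level of the 39 genes was 12.87, 9.81 and 10.98 FPKM in the Sg-Con libraries and 7.33, 6.96 and 8.22 FPKM in the Sg-C3 libraries, so the 2 groups did not overlap in this median. All 3 Sg-C3 values lay below all 3 Sg-Con values for 28 of the 39 genes, against 41.4% of all tested genes. These 28 were not quite the genes that passed: 26 of the genes that fell were among them, the groups overlapped in Mcm3 and Mcm5, which fell, and Gins2 and Rfc2 had separate groups but did not pass. Cdt1 was the member whose Sg-C3 values all lay above the Sg-Con values.

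**Figure D1:**
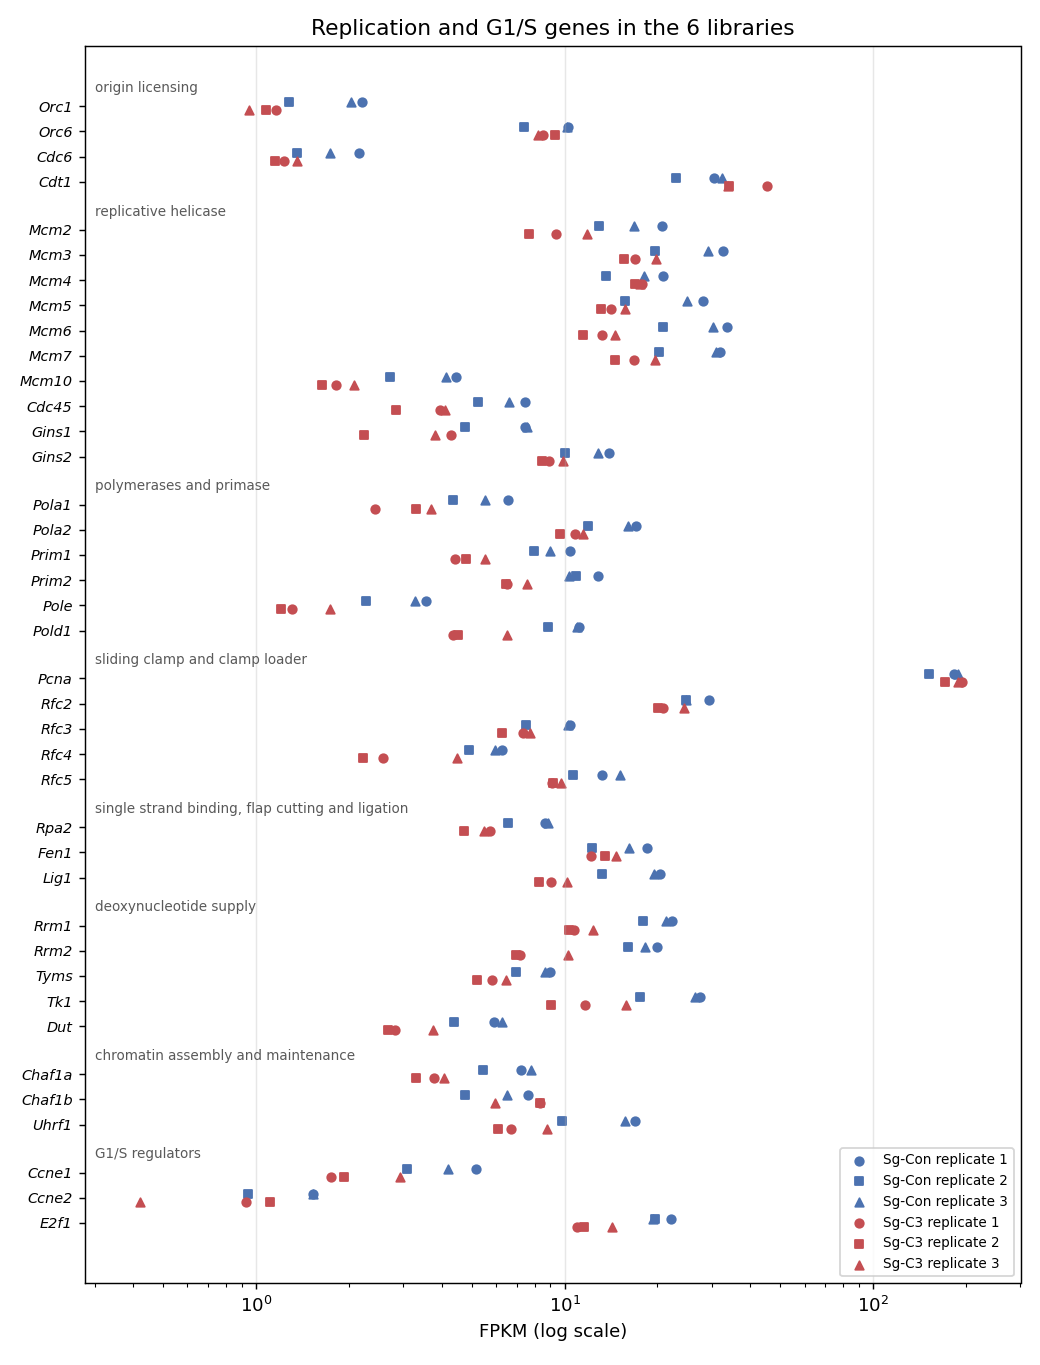
FPKM of each of the 39 genes in the 6 libraries, on a log axis, grouped by role; blue marks are the 3 Sg-Con libraries and red marks the 3 Sg-C3 libraries, with 1 shape per replicate. Red marks lie to the left of blue ones for most genes, Pcna stands far to the right in both groups, and the blue squares of Sg-Con replicate 2 are the leftmost blue marks in 37 of 39 genes.

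The count of genes that fell depended on single libraries and on the scaling. Leaving out Sg-Con replicate 1 gave 14, leaving out Sg-Con replicate 3 gave 15, and leaving out Sg-C3 replicate 1 or 2 gave 14 and 12, when 17.9% to 25.1% of all tested genes were still lower. Under quantile normalization and under median-ratio scaling it was 17, with 21.9% and 19.1% of all tested genes lower, and the share of all calls that were lower went from 71.5% to 56.9% and 50.5%. With the style of the sample titles, which sets 2 libraries of each group apart from the other one, as a covariate, the count was 24, and the calls of Orc1, Mcm3, Mcm5 and Pola2 were lost. In each of the 16 alternatives that tested them, 12 genes remained lower: Mcm6, Mcm10, Cdc45, Prim1, Prim2, Pole, Pold1, Lig1, Rrm1, Rrm2, Chaf1a and E2f1. Mcm10 and Pole were not tested in the alternative that asked for a mean of 5 FPKM.

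**Figure D2:**
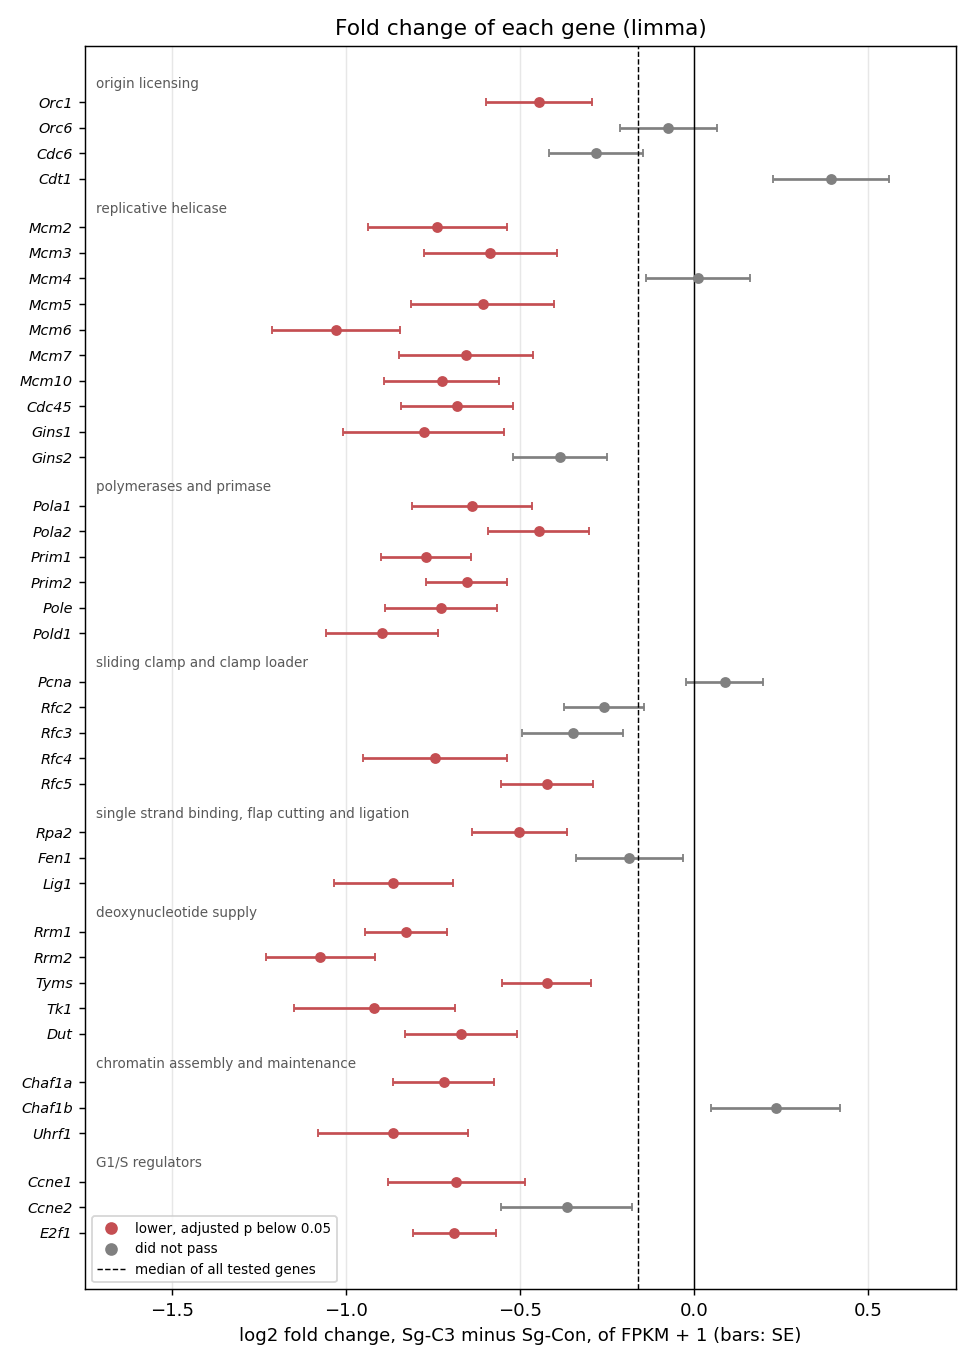
Log2 fold change of each gene, Sg-C3 minus Sg-Con, of FPKM + 1, with bars of 1 limma standard error; red points passed at an adjusted p below 0.05 and grey points did not, and the dashed line is the median of all tested genes (-0.16). The 28 red points lie left of the dashed line, and 4 grey points, Cdt1, Mcm4, Pcna and Chaf1b, lie right of zero; under quantile normalization and median-ratio scaling Orc6 lies there too.

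Promoter sequence was described because E2F is known to bind near the start of many replication genes. RefSeq promoters of build GRCm38.p6, from 250 bases before to 50 bases after the start, were found for 32 of the 39 genes. An E2F-type motif (TTTCCCGC, TTTGGCGC, TTTCGCGC, TTCCCGCC or TTGGCGCC, on either strand, a promoter counted once however many it holds, since these motifs overlap each other) was in 16 of the 32 (50%), against 776 of 8856 promoters of tested genes (8.76%). The motif was in 13 of 25 genes that fell and in 3 of 7 that did not pass. CCAAT, the letters of the NF-Y motif, on either strand, was in 18 of 32 (56.2%) against 43.1% of tested genes. Median GC content was 60.8% in these windows and 60.7% over tested genes. The windows below show the 120 bases before the start for the 2 genes that fell the most (Mcm6 with the E2F-type motif, Rrm2 without it), for 3 more whose calls held in every alternative and which carry the motif (Rrm1, Prim1 and Chaf1a), and for Pcna, which did not pass. Capitals mark the E2F-type motif and CCAAT, which reads ATTGG on the other strand.
Mcm6: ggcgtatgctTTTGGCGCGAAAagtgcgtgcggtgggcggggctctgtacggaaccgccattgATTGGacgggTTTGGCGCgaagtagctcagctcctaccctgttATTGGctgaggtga
Rrm2: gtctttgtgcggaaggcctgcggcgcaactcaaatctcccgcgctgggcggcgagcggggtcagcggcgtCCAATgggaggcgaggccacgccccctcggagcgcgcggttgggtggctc
Rrm1: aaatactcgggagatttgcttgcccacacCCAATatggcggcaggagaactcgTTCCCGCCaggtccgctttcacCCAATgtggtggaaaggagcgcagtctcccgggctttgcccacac
Prim1: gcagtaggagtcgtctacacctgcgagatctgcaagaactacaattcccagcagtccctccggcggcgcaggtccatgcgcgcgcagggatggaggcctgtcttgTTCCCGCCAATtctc
Chaf1a: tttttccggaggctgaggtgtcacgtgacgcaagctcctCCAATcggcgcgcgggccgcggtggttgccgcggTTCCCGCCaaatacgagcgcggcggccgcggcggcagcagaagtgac
Pcna: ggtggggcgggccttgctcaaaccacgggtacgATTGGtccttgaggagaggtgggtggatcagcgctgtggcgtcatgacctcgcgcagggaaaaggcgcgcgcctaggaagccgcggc
In GRCm38.p6 these are chr1:128359706-128359825 on the minus strand for Mcm6, chr12:24708134-24708253 on the plus strand for Rrm2 and chr7:102441575-102441694 on the plus strand for Rrm1. Those of Prim1 and Chaf1a are chr10:128015095-128015214 and chr17:56040296-56040415, both on the plus strand, and that of Pcna is chr2:132253181-132253300 on the minus strand. Mcm6 holds 3 matches to E2F-type motifs, of which 2 overlap as TTTGGCGCGAAA, and in Prim1 the E2F-type motif runs into CCAAT. A match is a description of letters, not of binding, and Rrm2 fell with no match in these letters.

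The origin licensing genes moved the least as a group: 1 of 4 fell, and the median log2 fold change was -0.18. Orc1, the largest subunit of the origin recognition complex, was at 2.21, 1.28 and 2.03 FPKM in Sg-Con and 1.16, 1.08 and 0.95 FPKM in Sg-C3. Orc1 thus lay lower in every Sg-C3 library and fell just past the threshold (log2 fold change -0.45 with SE 0.15, limma adjusted p = 0.0490), a call that was lost in 11 of 15 alternatives, including without any 1 library other than Sg-Con replicate 2. Its locus overlaps that of Prpf38a, which rose (log2 fold change 0.44, limma adjusted p = 0.0180). Orc6, another subunit of that complex, was at 10.28, 7.37 and 10.16 FPKM against 8.52, 9.28 and 8.22, and the groups overlapped (log2 fold change -0.07, limma adjusted p = 0.682). Cdc6, a helicase loader, was low throughout, at 2.15, 1.36 and 1.74 FPKM against 1.23, 1.15 and 1.36, with groups that met at 1.36 (log2 fold change -0.28, limma adjusted p = 0.126).

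Cdt1, the other helicase loader, ran the opposite way. Its level was 30.47, 22.89 and 32.41 FPKM in Sg-Con and 45.35, 34.10 and 33.89 FPKM in Sg-C3, so that Sg-C3 lay above Sg-Con in every library, most clearly in replicate 1. Cdt1 did not pass (log2 fold change 0.39 with SE 0.17, limma adjusted p = 0.0919), but under median-ratio scaling it did, as higher (0.55, limma adjusted p = 0.0288). Geminin, the inhibitor that binds Cdt1 outside G1, was not among the 39 genes and fell: Gmnn was at 17.42, 16.24 and 13.72 FPKM in Sg-Con and 7.20, 4.49 and 6.32 FPKM in Sg-C3 (log2 fold change -1.28 with SE 0.17, limma adjusted p = 0.00260). The groups of Gmnn were far apart, and its call held in every alternative.

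Of the 10 genes of the replicative helicase and its activators, 8 fell, with a median log2 fold change of -0.67 over the 10. Mcm6, a subunit of the MCM2-7 ring, went from 33.61, 20.79 and 30.19 FPKM in Sg-Con to 13.21, 11.46 and 14.61 FPKM in Sg-C3. Every Sg-C3 library was at or below 14.61 FPKM and the groups were well separated (log2 fold change -1.03 with SE 0.18, limma adjusted p = 0.00594). Mcm2 was at 20.64, 12.88 and 16.83 FPKM against 9.39, 7.67 and 11.80 (log2 fold change -0.74 with SE 0.20, limma adjusted p = 0.0226), with Sg-C3 replicate 3 closest to the Sg-Con range. Mcm3, Mcm5 and Mcm7 fell to 61.3% to 64.2% of their Sg-Con means, with log2 fold changes of -0.66 to -0.59 (limma adjusted p from 0.0292 to 0.0462), and in Mcm3 and Mcm5 the lowest Sg-Con library, replicate 2, lay inside or at the edge of the Sg-C3 range. The calls of Mcm2, Mcm3, Mcm5 and Mcm7 were each lost without Sg-Con replicate 1 or 3 or without Sg-C3 replicate 1 or 2, that of Mcm5 also without Sg-C3 replicate 3, and those of Mcm3, Mcm5 and Mcm7 under both quantile normalization and median-ratio scaling.

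Mcm4 was the ring subunit that did not pass. Its level was 20.89, 13.67 and 18.12 FPKM in Sg-Con and 17.87, 16.90 and 17.57 FPKM in Sg-C3, and the Sg-C3 libraries sat inside the Sg-Con range (log2 fold change 0.01 with SE 0.15, limma adjusted p = 0.961). The 6 subunits enter the ring in equal numbers, so each was also set against the mean of the other 5 in the same library. Multiplying a library by 1 factor cannot change this ratio, though quantile normalization can. This ratio was chosen after the values had been seen. For Mcm4 it was 0.710, 0.767 and 0.686 in Sg-Con and 1.27, 1.35 and 1.08 in Sg-C3. For Mcm6 it was 1.25, 1.27 and 1.26 against 0.881, 0.844 and 0.865. The groups did not overlap in either ratio, whereas they overlapped for Mcm2, Mcm3, Mcm5 and Mcm7. With 3 libraries against 3, a two-sided exact permutation test cannot go below p = 0.1, so it cannot decide here. The permutation test gave this lowest value for Mcm4 and for Mcm6 (adjusted p = 0.3 over the 6 subunits). Each subunit also enters the means that the other 5 are divided by, so the 6 ratios are not separate results.

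**Figure D3:**
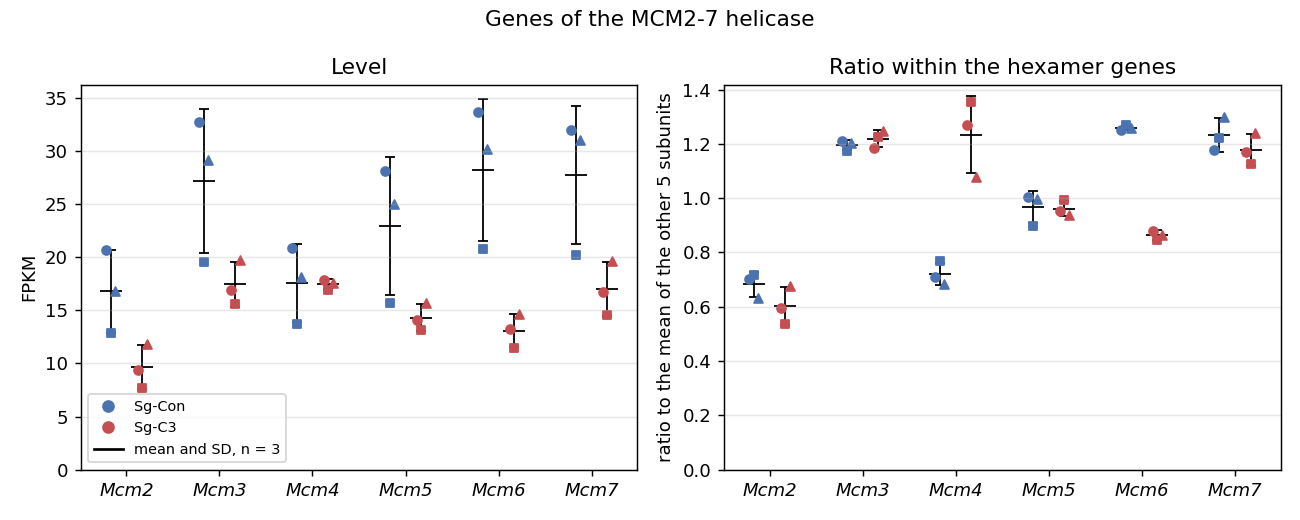
Left, FPKM of the 6 MCM2-7 genes per library with the mean and SD of 3 libraries, Sg-Con in blue and Sg-C3 in red; right, each subunit divided by the mean of the other 5 in the same library. Mcm4 overlaps between groups on the left and moves from 0.721 ± 0.042 to 1.23 ± 0.14 on the right, Mcm6 moves from 1.26 ± 0.0087 to 0.863 ± 0.018, and the other 4 ratios overlap between groups.

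The factors that activate the loaded ring fell with it, apart from Gins2. Mcm10, which helps to start unwinding, was at 4.45, 2.72 and 4.12 FPKM in Sg-Con and 1.82, 1.64 and 2.08 FPKM in Sg-C3 (log2 fold change -0.73 with SE 0.17, limma adjusted p = 0.0126). Cdc45, a partner of the active helicase, was at 7.44, 5.25 and 6.61 FPKM against 3.95, 2.85 and 4.10 (log2 fold change -0.68 with SE 0.16, limma adjusted p = 0.0144). Both genes had separate groups, with Sg-Con replicate 2 nearest to Sg-C3. Gins1, a GINS subunit, fell to 52.3% of its Sg-Con mean (log2 fold change -0.78, limma adjusted p = 0.0305), a call lost without Sg-Con replicate 1 or 3, without Sg-C3 replicate 2 and under quantile normalization and median-ratio scaling. Gins2, another subunit of GINS, was at 13.98, 10.01 and 12.79 FPKM against 8.93, 8.47 and 9.85. The groups of Gins2 did not overlap, though Sg-Con replicate 2 and Sg-C3 replicate 3 were close, and it just missed the threshold (log2 fold change -0.39 with SE 0.14, limma adjusted p = 0.0530); without Sg-Con replicate 2 it passed at 0.0238.

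All 6 DNA polymerase and primase genes fell, with a median log2 fold change of -0.69. Prim1, the catalytic subunit of the primase that lays down RNA primers, was at 10.44, 7.95 and 8.96 FPKM in Sg-Con and 4.42, 4.79 and 5.53 FPKM in Sg-C3 (log2 fold change -0.77 with SE 0.13, limma adjusted p = 0.00505). Prim2, its large regulatory subunit, was at 12.87, 10.92 and 10.37 FPKM against 6.52, 6.48 and 7.58 (log2 fold change -0.65 with SE 0.12, limma adjusted p = 0.00598). In both primase genes the lowest Sg-Con library stood well above the highest Sg-C3 library. Pold1, the catalytic subunit of polymerase delta on the lagging strand, was at 11.13, 8.85 and 10.98 FPKM against 4.35, 4.51 and 6.51 (log2 fold change -0.90 with SE 0.16, limma adjusted p = 0.00617). Pole, the catalytic subunit of the leading strand polymerase epsilon, was at 3.55, 2.27 and 3.28 FPKM against 1.31, 1.21 and 1.74 (log2 fold change -0.73 with SE 0.16, limma adjusted p = 0.0114). Sg-C3 replicate 3 was the highest Sg-C3 library in each of these 4 genes and still lay below every Sg-Con library. Pola1 and Pola2, subunits of the polymerase alpha that works with primase, fell to 57.5% and 70.9% of their Sg-Con means (limma adjusted p = 0.0221 and 0.0414), and both calls were lost without Sg-Con replicate 1 or 3, without Sg-C3 replicate 1 or 2 and under quantile normalization and median-ratio scaling.

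The sliding clamp gene did not pass, while 2 of the genes that load the clamp fell. Pcna was by far the most abundant of the 39 genes, at 182.60, 151.19 and 188.44 FPKM in Sg-Con and 194.57, 170.18 and 188.34 FPKM in Sg-C3. The groups of Pcna overlapped widely and the fold change was small (log2 fold change 0.09 with SE 0.11, limma adjusted p = 0.545). RefSeq names 2 Pcna pseudogenes that could share its reads, and neither is among the rows of the table. Of the 4 small subunits of the clamp loader RFC, Rfc4 fell from 6.28, 4.90 and 5.94 FPKM to 2.59, 2.22 and 4.47 (log2 fold change -0.75 with SE 0.21, limma adjusted p = 0.0244), with Sg-C3 replicate 3 standing well above the other Sg-C3 libraries. Rfc5 fell from 13.21, 10.64 and 15.11 FPKM to 9.10, 9.15 and 9.75 (log2 fold change -0.42 with SE 0.13, limma adjusted p = 0.0360).

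Rfc2 and Rfc3 did not pass. Rfc2 was at 29.45, 24.66 and 24.82 FPKM in Sg-Con and 20.86, 20.14 and 24.41 FPKM in Sg-C3, separate groups that came close to each other (log2 fold change -0.26, limma adjusted p = 0.101). Rfc3 was at 10.39, 7.51 and 10.28 FPKM against 7.33, 6.25 and 7.74, with an overlap between Sg-Con replicate 2 and Sg-C3 replicate 3 (log2 fold change -0.35, limma adjusted p = 0.0866). The calls of Rfc4 and Rfc5 were both lost without Sg-Con replicate 1 or 3 and without Sg-C3 replicate 1 or 2. That of Rfc5 was also lost without Sg-C3 replicate 3 and under quantile normalization and median-ratio scaling.

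Among the genes that bind, cut and join strands, 2 of 3 fell. Lig1, the ligase that seals Okazaki fragments, was at 20.37, 13.26 and 19.51 FPKM in Sg-Con and 9.03, 8.25 and 10.15 FPKM in Sg-C3, with all Sg-C3 libraries below the lowest Sg-Con library (log2 fold change -0.87 with SE 0.17, limma adjusted p = 0.00796). Rpa2, a subunit of the protein that coats single-stranded DNA, was at 8.63, 6.57 and 8.81 FPKM against 5.75, 4.73 and 5.50, again without overlap (log2 fold change -0.50 with SE 0.14, limma adjusted p = 0.0223). The call of Rpa2 was lost without Sg-Con replicate 1 or 3, without Sg-C3 replicate 2 and under quantile normalization and median-ratio scaling. Fen1, the nuclease that trims the flaps of Okazaki fragments, was at 18.46, 12.28 and 16.15 FPKM against 12.22, 13.48 and 14.70, so the Sg-C3 libraries lay mostly inside the Sg-Con range (log2 fold change -0.19, limma adjusted p = 0.348).

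Deoxynucleotide supply was the role with the lowest median, -0.83, and all 5 of its genes fell. Rrm2, the regulated small subunit of ribonucleotide reductase, was at 19.86, 16.10 and 18.16 FPKM in Sg-Con and 7.16, 6.96 and 10.26 FPKM in Sg-C3. Rrm2 had the lowest fold change of the 39 genes (log2 fold change -1.07 with SE 0.16, limma adjusted p = 0.00345). Rrm1, the large subunit of the same enzyme, was at 22.28, 17.95 and 21.37 FPKM against 10.69, 10.31 and 12.34 and had the smallest adjusted p of the 39 (log2 fold change -0.83 with SE 0.12, limma adjusted p = 0.00317). Both subunits had groups that lay far apart. Tk1, the S phase thymidine kinase, was at 27.42, 17.51 and 26.44 FPKM against 11.61, 9.05 and 15.84 (log2 fold change -0.92 with SE 0.23, limma adjusted p = 0.0175). Dut, which removes dUTP, was at 5.89, 4.38 and 6.28 FPKM against 2.82, 2.68 and 3.76 (log2 fold change -0.67 with SE 0.16, limma adjusted p = 0.0147). The groups of Tk1 and Dut did not overlap either, with Sg-C3 replicate 3 highest in its group in both. Tyms, thymidylate synthase, fell to 71.3% of its Sg-Con mean (limma adjusted p = 0.0324), and the table also lists a Tyms pseudogene that may share its reads. The calls of Tk1, Dut and Tyms were lost without Sg-C3 replicate 1 or 2, those of Tk1 and Tyms without Sg-Con replicate 1, and that of Tyms also without Sg-Con replicate 3 and under quantile normalization and median-ratio scaling.

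The genes that rebuild chromatin behind the fork were split. Chaf1a, the large subunit of the histone chaperone CAF-1, was at 7.23, 5.44 and 7.78 FPKM in Sg-Con and 3.77, 3.29 and 4.08 FPKM in Sg-C3 (log2 fold change -0.72 with SE 0.14, limma adjusted p = 0.00851). Its partner Chaf1b was at 7.59, 4.75 and 6.49 FPKM against 8.31, 8.32 and 5.93, with overlapping groups (log2 fold change 0.23 with SE 0.19, limma adjusted p = 0.332). The fold change of Chaf1b was above 0 in all 16 alternatives, and none of them called it. Uhrf1, which recognises newly copied DNA and brings in the maintenance methyltransferase, was at 16.95, 9.81 and 15.74 FPKM against 6.73, 6.07 and 8.80, with no overlap (log2 fold change -0.87 with SE 0.22, limma adjusted p = 0.0170). That call was lost without Sg-C3 replicate 1 or 2.

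Of the 3 G1/S regulators, E2f1 and Ccne1 fell. E2f1, an activating transcription factor of the G1/S genes, was at 22.06, 19.61 and 19.31 FPKM in Sg-Con and 10.98, 11.60 and 14.25 FPKM in Sg-C3, with the Sg-Con libraries close together and all above the Sg-C3 libraries (log2 fold change -0.69 with SE 0.12, limma adjusted p = 0.00561). Ccne1, which encodes cyclin E1, was at 5.16, 3.09 and 4.20 FPKM against 1.75, 1.93 and 2.92, groups that were narrowly separate (log2 fold change -0.68 with SE 0.20, limma adjusted p = 0.0274). The call of Ccne1 was lost without Sg-Con replicate 1 or 3, without Sg-C3 replicate 1 or 2 and under quantile normalization and median-ratio scaling. Ccne2, which encodes cyclin E2, was near the 1 FPKM minimum of the filter at 1.53, 0.94 and 1.53 FPKM against 0.93, 1.11 and 0.42, and it did not pass (log2 fold change -0.37, limma adjusted p = 0.146).

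Within each group the genes kept an order among the libraries. Sg-Con replicate 2 was the lowest Sg-Con library for 37 of the 39 genes, against 40.2% of all tested genes, and Sg-Con replicate 1 was the highest for 32. Sg-C3 replicate 3 was the highest Sg-C3 library for 30 of the 39 (76.9%, against 43.9% of all tested genes) and Sg-C3 replicate 2 the lowest for 27. Without Sg-Con replicate 2 the count of genes that fell was 30, and the median log2 fold change of the 39 genes was -0.80. In that fit, 22.9% of all tested genes were lower.

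Replication genes outside the 39 were mostly lower too. Of 40 further replication genes 38 were tested, 24 fell and 2 rose, with a median log2 fold change of -0.50. The shares over all tested genes were 31.7% lower and 12.7% higher. Besides Gmnn, the smallest p-values were those of Pole2 (polymerase epsilon), Rfc1 (the large clamp loader subunit) and Tipin (a fork protection factor), which fell with log2 fold changes of -1.19, -0.81 and -0.91 (limma adjusted p = 0.00301, 0.00332 and 0.00352). Dnmt1, the maintenance methyltransferase that Uhrf1 recruits, was named after its values were seen: it was at 22.22, 15.10 and 16.38 FPKM in Sg-Con and 6.29, 5.69 and 8.98 FPKM in Sg-C3, and fell further than any of the 39 genes (log2 fold change -1.25, limma adjusted p = 0.00413). The 2 that rose were Pold4, the smallest subunit of polymerase delta (log2 fold change 0.44, limma adjusted p = 0.00920), and Top1, topoisomerase I (0.62, limma adjusted p = 0.0328), whose call was lost without any 1 of 4 libraries (Sg-Con replicates 1 and 2, Sg-C3 replicates 1 and 2). The count of 24 was 14 and 15 with Sg-C3 replicate 2 or 1 left out, 16 with Sg-Con replicate 1 left out and 16 under median-ratio scaling. In these fits, 17.9% to 21.9% of all tested genes were lower.

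Genes that push cells into S phase were lower too. Of 15 tested, among them cyclins and their kinases, E2F factors with their Dp partners and Myc, 10 fell and none rose. The background was 31.7% of all tested genes lower and 12.7% higher. Ccnd3 and Ccnd1, cyclins of the D type that act in G1, fell with log2 fold changes of -0.88 and -0.98 (limma adjusted p = 0.00347 and 0.00653). Ccna2, the S phase cyclin A2, fell by 1.28 on the log2 scale (limma adjusted p = 0.00392), from 17.45, 14.03 and 14.99 FPKM to 5.04, 4.55 and 8.17. Cdk4 and Cdk2, their kinase partners, fell with log2 fold changes of -0.66 and -0.58 (limma adjusted p = 0.00445 and 0.00523). Myc, a growth-promoting transcription factor, was at 22.67, 19.05 and 20.61 FPKM against 21.28, 19.27 and 28.16, with overlapping groups (log2 fold change 0.12, limma adjusted p = 0.532).

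A list of retinoblastoma family genes, repressor E2Fs, CDK inhibitors and genes of the p53 pathway, mostly known to restrain the G1/S step, went both ways, with 8 of 17 tested lower and 3 higher. The share that rose was near the 12.7% of all tested genes, and the share that fell stands against 31.7%. Cdkn1b, which encodes the CDK inhibitor p27, was at 22.47, 18.37 and 18.67 FPKM in Sg-Con and 43.28, 42.71 and 33.34 FPKM in Sg-C3. Every Sg-C3 library lay far above every Sg-Con library (log2 fold change 0.96 with SE 0.13, limma adjusted p = 0.00298), and the call held in every alternative. The others that rose were Btg1, an antiproliferative factor, and Mdm2, a p53 target whose product marks p53 for degradation and so does not itself restrain the step (log2 fold changes 0.40 and 0.65, limma adjusted p = 0.0161 and 0.0138). Those that fell included E2f8 and E2f6, repressors of the E2F family (log2 fold changes -1.01 and -0.89, limma adjusted p = 0.00162 and 0.00193), and Cdkn2c, which encodes the CDK4/6 inhibitor p18 (log2 fold change -1.13, limma adjusted p = 0.00477). Cdkn1a, the p53 target that encodes p21, was at 225.51, 263.68 and 306.25 FPKM against 283.15, 397.32 and 348.40 and did not pass (log2 fold change 0.37, limma adjusted p = 0.0955).

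Mitosis genes, which act after replication, were lower in a larger share than the 39 genes: 42 of 45 tested fell and none rose. Their median log2 fold change was -0.87. Over all tested genes, 31.7% fell and 12.7% rose. The difference in counts from the 39 genes was not tested. Top2a, topoisomerase II alpha, fell from 31.23, 20.51 and 26.92 FPKM to 12.44, 13.42 and 17.85 (log2 fold change -0.80 with SE 0.19, limma adjusted p = 0.0133). Cdc25b, Anln, Plk1 and Nusap1, which act at mitotic entry, in cytokinesis and in the spindle, had the smallest p-values, with log2 fold changes of -0.95, -1.13, -1.14 and -1.31 (limma adjusted p = 0.00190, 0.00223, 0.00320 and 0.00381). The 3 that did not pass were Aurka, Cenpa and Mki67. Mki67, the gene of the proliferation antigen Ki-67, was at 32.22, 19.85 and 28.82 FPKM in Sg-Con and 30.10, 46.74 and 35.33 FPKM in Sg-C3, with its highest value in Sg-C3 replicate 2, where 27 of the 39 replication genes had their lowest Sg-C3 value (log2 fold change 0.46 with SE 0.22, limma adjusted p = 0.117).

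**Figure D4:**
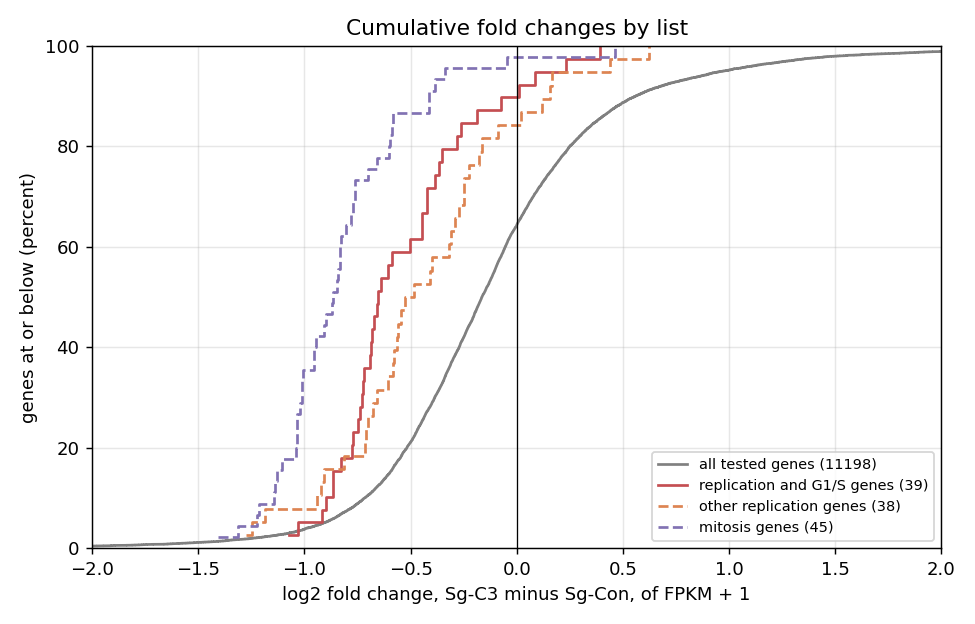
Cumulative share of genes (percent) at or below each log2 fold change, Sg-C3 minus Sg-Con, of FPKM + 1: all 11198 tested genes in grey, the 39 replication and G1/S genes in red, 38 other replication genes in orange and 45 mitosis genes in purple. The red and orange curves lie left of the grey one over most of their range (medians -0.65 and -0.50 against -0.16), and the purple curve lies further left (median -0.87).

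Markers of other cells that a sort can hold did not follow 1 direction. They are described here by sums and by groups that do not overlap, over all listed genes in the table, because several passed the filter only through the group where they were high. Of all tested genes, 41.4% had every Sg-C3 value below Sg-Con and 16.2% had every Sg-C3 value above. Of 12 macrophage genes, 5 lay below Sg-Con in every Sg-C3 library, close to the share of all tested genes, and none above. Their sums were 21770 to 24320 FPKM in Sg-Con and 16090 to 19540 in Sg-C3. Much of that difference lay in Lyz2, with means of 7712 FPKM in Sg-Con and 3378 in Sg-C3. Adgre1, Fcgr1, Cd14 and Apoe were at 95.3% to 99.2% of their Sg-Con means. Of 11 neutrophil genes 8 lay above (sums 169.3 to 238.9 against 412.9 to 1446). So did 7 of 13 dendritic cell genes (37.97 to 56.43 against 73.0 to 143.0). In Sg-C3 these sums came mostly from S100a8 and S100a9 and from Ccr7 and Cd24a. Means were lower in Sg-C3, with overlapping groups, for Mmp8 and Mmp9 of neutrophils and for Cd209a, Clec10a and Tlr3 of dendritic cells. Of 15 T cell genes 9 lay above and 1 below (13.82 to 16.03 against 24.88 to 33.14). Of 6 B cell genes 1 lay above, close to the share of all tested genes. Monocyte genes were split, with 3 above and 3 below of 7, fibroblast genes had 7 above and 3 below of 13, and endothelial genes had 2 above and 1 below of 7. No listed marker was at 0 in all libraries, but Ncr1 and Eomes of natural killer cells and Flt3 of dendritic cells stayed under 1 FPKM in each. Their part in the lower replication RNA was not tested.

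Shared reads limit a few values, since the labels do not say whether counting used strand. By RefSeq gene spans, 11 of the 39 genes overlap another protein-coding gene of the table, 8 that fell and 3 that did not pass (Gins2, Fen1 and Ccne2). Among the neighbours of the 8 that could be tested, none passed as lower: Prpf38a beside Orc1 rose, while Ap4m1 beside Mcm7, Ufd1 beside Cdc45, Eif4a2 beside Rfc4, Afmid beside Tk1 and Ubxn6 beside Chaf1a did not pass. Zswim9 beside Lig1 and Necab3 beside E2f1 were under 1 FPKM and were not tested. Zswim9 was at 0.68, 0.57 and 0.73 FPKM in Sg-Con and 0.19, 0.23 and 0.43 in Sg-C3, lower in every Sg-C3 library, as Lig1 was.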

How the data were processed

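RNA of sorted macrophages was measured in 6 libraries, 3 per group, numbered in accession order. The authors deposited 1 FPKM value per gene and library, per the file headers. The submitters' processing notes name Bowtie 0.12.2 and the genome build mm8. The tool that gave FPKM is unnamed there (not given in the sources used here), and library kits of TruSeq and MGIEasy type are both named in the labels' protocols. Genes reaching 1 FPKM in 3 or more libraries were fitted on log2(FPKM + 1), which understates changes of low genes, with limma 3.58.1 (R 4.3.3; lmFit and eBayes with a trend, two-sided), adjusted over all tested genes. SE is the moderated standard error from limma. Depth was estimated from steps of 1 read in 435 short non-coding genes (88.8% to 93.9% of values whole within 0.1 read). Only a preset range of depths was searched. Sequences and gene spans are from RefSeq GRCm38.p6, which differs from mm8. Python 3.11.15 was used with numpy 2.4.6, scipy 1.17.1, pandas 2.3.3 and matplotlib 3.10.9. The fit was tested on simulated data. Members and lists were chosen with earlier results of these data known, and lists are described by counts. Where a role has more than 4 members that passed, the 4 with the smallest p are given in full. Of each other cell cycle list, up to 4 called genes with the smallest p are named, with Mki67, Top2a, Ccnd1, Cdkn1a, Myc and Adgre1 in every case; 2 genes that this rule takes are not reported here. A deposited column of gene clusters was not used here.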

Additional observations from a re-analysis of the deposited data

How the results depend on the processing

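Over the 16 alternatives, no gene that fell turned its direction. The count of genes that fell went from 28 to 17 under quantile normalization and to 17 under median-ratio scaling, and to between 12 and 30 when 1 library was left out. The median log2 fold change went from -0.65 to -0.50 under both scalings (-0.4989 and -0.5044). By construction these scalings move all genes, and the median of all tested genes went from -0.16 to -0.058 and -0.0175. The count of genes that rose went from 0 to 1 (Cdt1) under median-ratio scaling and to 1 at an adjusted p threshold of 0.1. The count of all genes called was 4972 and ran from 2780 to 5062 when 1 library was left out, with fewer samples in each fit. Orc6 changed sign, to 0.0891 under quantile normalization and 0.0757 under median-ratio scaling, Mcm4 ran from -0.150 to 0.139 and Pcna from -0.0111 to 0.147 when 1 library was left out, and none of these 3 was called in any alternative. Not every gene was tested once a library was left out, since the filter keeps fewer low genes. No paired analysis was possible because the labels give the libraries no replicate numbers that groups share. A covariate for how the samples are titled left 24 genes lower, and Orc1, Mcm3, Mcm5 and Pola2 no longer passed. Estimated depths were 17.8 to 19.4 megareads. The lowest genes, Orc1, Cdc6 and Ccne2, lay near the 1 FPKM minimum of the filter, and how many reads they rest on is not known.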

Other observations

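A list made up mostly of genes of DNA repair and of the replication checkpoint was lower in Sg-C3 as well. Of 23 tested, 13 fell and none rose, with a median log2 fold change of -0.57 against -0.16 over all tested genes. The list also holds genes of other roles, among them Atad2 and Hells, which fell, and Slbp and Tfam, which did not pass. Of all tested genes, 31.7% fell and 12.7% rose. Brca1, which acts in repair by recombination, fell with a log2 fold change of -0.83 (limma adjusted p = 0.00726). Wee1, the kinase that holds back CDK1, was at 7.46, 13.65 and 5.59 FPKM against 2.70, 1.40 and 2.66 (log2 fold change -1.55 with SE 0.31, limma adjusted p = 0.00826), and its highest value came from Sg-Con replicate 2, where most replication genes had their lowest Sg-Con value. The count of 13 was 8 without Sg-C3 replicate 2, when 17.9% of all tested genes were lower. A filter at a mean of 5 FPKM left 5 of these genes, of which 2 fell, against 33.9% of all tested genes.

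Outside ribonucleotide reduction and thymidylate synthesis, 10 of 18 tested genes of nucleotide metabolism fell and 1 rose. The shares of all tested genes were 31.7% lower and 12.7% higher. Paics, an enzyme of purine synthesis, was at 48.51, 46.52 and 47.43 FPKM in Sg-Con and 28.63, 25.55 and 30.02 FPKM in Sg-C3, with tight groups far apart (log2 fold change -0.74 with SE 0.09, limma adjusted p = 0.00215). Mthfd1 of the folate cycle and the nucleoside diphosphate kinase Nme1 fell with log2 fold changes of -0.85 and -0.60 (limma adjusted p = 0.00539 and 0.00663). The gene that rose was Samhd1, which breaks down deoxynucleotides and is also known as an interferon-induced gene, at 76.93, 77.72 and 75.83 FPKM against 102.46, 136.52 and 131.44 (log2 fold change 0.67 with SE 0.12, limma adjusted p = 0.00614). All of these 4 calls held in every alternative.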
